A study of Mus musculus with 12 samples.

Results

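Expression after 12 h of BMP6 was compared with expression in mock-treated control cells, on 6 of the 12 arrays of the series: 3 arrays whose titles give 12 h of treatment and 3 whose titles mark them as controls. The cells were MECs, a mouse intraembryonic endothelial cell line, and all groups came from this 1 cell line. Labelled RNA of the cells (Cy5) was hybridised on each array together with labelled universal mouse reference RNA (Cy3), so every value is a log2 ratio of cells to that reference. The other 6 arrays held cells given BMP6 for 4 h or 24 h, 3 arrays each. The labels call the 3 arrays of a group independent replicates, give no dose of BMP6 and give no time for the mock treatment of the controls. Arrays of the same number (1, 2 or 3) were treated as pairs. Neither the base of the logarithm nor the sign of the deposited values is given in the sources used here. The values were read to base 2 and with the cells (Cy5) in the numerator. The opposite sign would turn each direction given below, and a natural logarithm would make the folds larger.

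BMP6 is a secreted ligand of the TGF-beta superfamily. It binds pairs of type I and type II serine/threonine kinase receptors, which phosphorylate the receptor SMADs Smad1, Smad5 and Smad9. These enter the nucleus with Smad4 and act on target genes, of which the Id genes are the best known in endothelial cells, where BMP signals take part in vessel growth. The series carries a title on cyclooxygenase 2 and prostanoids, the lipid mediators made from arachidonic acid, so the genes of that pathway were examined too.

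The 6 arrays correlated with each other at 0.887 to 0.963 over the 20280 probes, their SDs lay between 0.607 and 0.681, and their medians between -0.044 and -0.016. No array stood apart as a copy of another: the smallest median absolute difference between a pair of arrays was 0.098. Gene names were available for probes of 8267 genes, 6436 of them with 1 probe and 1831 with 2 or more, which were averaged. Without spot intensities, detection of single probes was not examined. The number of arrays limits the precision.

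Inhibitors of differentiation, a Wnt ligand and a protease inhibitor led the rise at 12 h, and an interferon-inducible GTPase, an oxysterol hydroxylase and the adhesion molecule Vcam1 led the fall, among genes that passed with each of the 6 arrays left out in turn. Of 8267 genes, 156 (1.89%) passed an adjusted p of 0.05 in limma with the replicate number as a block: 39 were higher (0.472%) and 117 lower (1.42%). At an unadjusted p under 0.05 this fit had 1277 of the 8267 genes. Unadjusted counts of list members given below are to be read beside that share. In RNA of a whole culture, a change in RNA per cell cannot be told apart from a change in the share of cells that make it. The median of the genes called higher was 0.37 on the log2 scale and that of the genes called lower -0.37, against -0.002 over all genes. Changes of 0.5 or more in size were found in 11 of the 39 and 26 of the 117. All 39 rose in 3 of 3 pairs and all 117 fell in 3 of 3 pairs, as 14.7% and 17.5% of all genes did. The paired fit favours genes with like differences over the pairs, so this agreement is no separate evidence. The 3 arrays at 12 h lay wholly outside the range of the 3 controls for 21 of the 39 and 70 of the 117, where 7.27% of all genes had groups that did not overlap (3.13% higher, 4.14% lower). The names rest on the position order of the array that made probes of 1 gene correlate (0.471 over genes with several probes, against 0.021 in the deposited order). Among single probes, whose counts do not need names, 109 of 20280 (0.537%) passed, 27 higher (0.133%) and 82 lower (0.404%), and 22 of the 109 carry no single gene name here.

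These calls rest on the pairing of arrays by number. Without the block, limma called 0 genes and 0 probes (393 genes and 631 probes at an unadjusted p under 0.05), and the lowest adjusted p was 0.0689 for a gene and 0.163 for a probe. The number of genes called fell to 26 when the fit held the 6 arrays alone, 25 of them among the 156. After quantile normalization between arrays 215 genes passed, 80 higher and 135 lower, a more even split than 39 and 117. Leaving out single arrays, the paired fit called 112, 34 and 288 genes without control replicate 1, 2 and 3, and 35, 22 and 62 without 12 h replicate 1, 2 and 3. The lower genes outnumbered the higher ones in each of those fits except that without control replicate 3, which had 169 higher and 119 lower. Only 6 of the 39 higher genes and 15 of the 117 lower genes passed in all 6 of those fits. Each of those 6 higher genes and the 12 lower genes of largest change are described in full below. Leaving out all arrays of number 1, 2 or 3, the paired fit called 15, 3 and 92 genes. Of these, 15, 3 and 52 were among the 156. Since 3 genes passed without number 2, most of the 18 genes described in full missed the threshold in that fit.

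**Figure D1:**
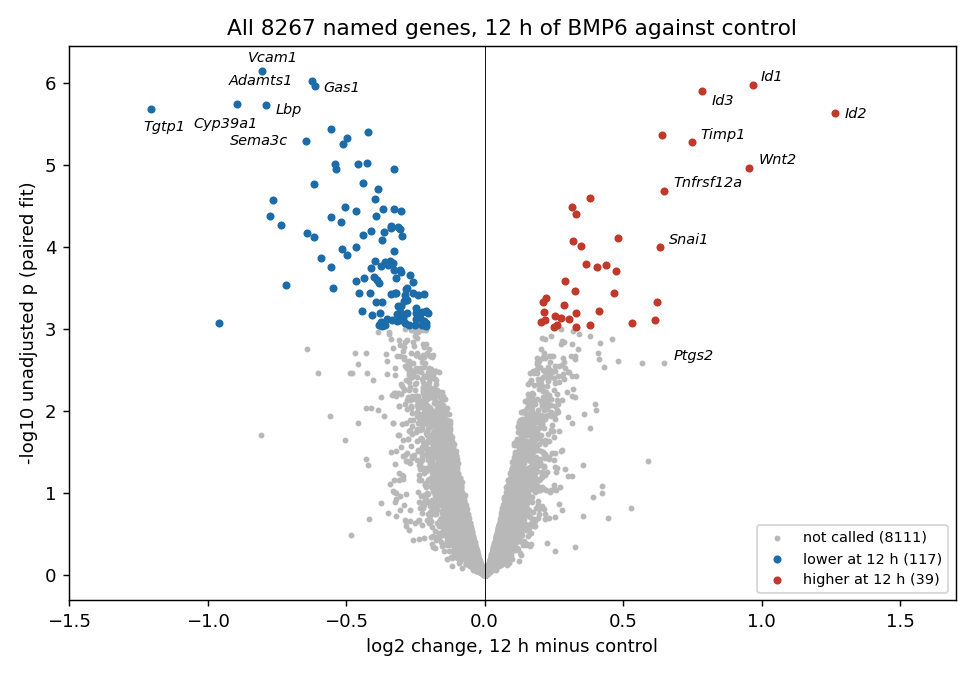
Each point is 1 of 8267 genes, with the log2 change from control to 12 h of BMP6 on the horizontal axis and -log10 of the unadjusted p of the paired limma fit on the vertical axis. The 39 genes called higher are red and the 117 called lower are blue; Id2 at 1.27 and Tgtp1 at -1.21 lie farthest out on either side.

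Id1, Id2 and Id3 encode inhibitors of DNA binding, small proteins that pair with basic helix-loop-helix transcription factors and keep them off DNA, and all 3 rose at 12 h. Promoter sequence is shown for the Id genes found in the RefSeq table of mouse promoters (GRCm38.p6), since this family led the rise. Each line gives the 250 bases before the gene's start, 5′ to 3′ on the strand of the gene, at chr12:25096093-25096342 (minus strand) for Id2 and at chr4:136143572-136143821 (plus strand) for Id3. Capitals mark the letters GGCGCC, the core of a GC-rich element that BMP-activated SMADs are known to bind, searched on both strands.
Id2: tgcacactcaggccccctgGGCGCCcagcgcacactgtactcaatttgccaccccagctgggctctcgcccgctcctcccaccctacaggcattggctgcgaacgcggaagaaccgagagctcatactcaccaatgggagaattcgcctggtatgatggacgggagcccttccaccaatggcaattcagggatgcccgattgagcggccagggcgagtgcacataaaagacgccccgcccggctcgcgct
Id3: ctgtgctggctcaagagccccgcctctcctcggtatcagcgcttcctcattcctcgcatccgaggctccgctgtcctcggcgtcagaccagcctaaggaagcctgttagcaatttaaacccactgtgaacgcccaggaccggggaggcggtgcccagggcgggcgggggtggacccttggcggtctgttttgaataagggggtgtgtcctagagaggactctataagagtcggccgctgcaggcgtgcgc
The letters were present once in the Id2 window, 231 bases before the start, and not in the Id3 window. They occur in 9.59% of 32851 promoter windows of this length, and a match is a description of the letters and not evidence of a bound site.

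Id2 stood at -0.41, -0.69 and 0.26 on control arrays 1 to 3 and at 1.08, 0.70 and 1.18 on the 12 h arrays 1 to 3. Every 12 h array was above every control array. The rise was 2.41-fold (log2 change 1.27, SE 0.134, limma adjusted p 0.00211), the largest among the 39 higher genes. Id1 had control values of 0.17, 0.37 and 1.07 and 12 h values of 1.23, 1.49 and 1.81. Its groups did not overlap either, although control replicate 3 lay well above the other two controls. Id1 rose 1.96-fold (log2 change 0.97, SE 0.094, limma adjusted p 0.00205). Id3, with 1.23, 0.68 and 1.20 in controls and 2.07, 1.48 and 1.91 at 12 h, rose 1.72-fold (log2 change 0.79, SE 0.078, limma adjusted p 0.00205). The arrays numbered 2 were the lowest of their group for both Id2 and Id3. All 3 calls held with each of the 6 arrays left out (highest adjusted p 0.0212), while the unpaired limma fit gave adjusted p-values of 0.317 for Id2, 0.533 for Id1 and 0.359 for Id3.

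Among BMP target genes the Id genes were the ones that passed. Of 17 measured members of the list, the 3 Id genes were called higher and 0 lower, where 0.472% of all genes were called higher, and the median over the list was 0.06. That median was not stable. It ran from 0.0201 without 12 h replicate 2 to 0.0747 without 12 h replicate 3. With each of the 6 arrays left out it moved by more than its SD over pairs of 0.0101. Hes1, a transcriptional repressor of the Notch and BMP pathways, stood at 0.21 (SE 0.070, limma adjusted p 0.176). Gata6, an endodermal and cardiac transcription factor, was the lowest member at -0.21. Msx2, Dlx2, Hey2 and Hey1, transcription factors that BMPs are known to act on in other tissues, lay at 0.11, 0.09, 0.09 and 0.06 and were not called.

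Wnt2, a secreted ligand of the Wnt pathway, rose from -0.98, -0.999 and -0.78 on the control arrays to 0.40, -0.18 and -0.11 at 12 h. All 12 h arrays were above all controls, and 12 h replicate 1 was highest. The change was 1.94-fold (log2 0.96, SE 0.12, limma adjusted p 0.00422). Timp1, an inhibitor of matrix metalloproteases, had control values of 1.89, 1.83 and 2.40 and 12 h values of 2.82, 2.56 and 2.97, so the lowest treated array was above the highest control. Timp1 rose 1.68-fold (log2 change 0.75, SE 0.087, limma adjusted p 0.00283). A probe that the platform annotation lists under the human symbol TIMP1 rose 1.56-fold (log2 change 0.64, SE 0.073, limma adjusted p 0.00283), from a mean of 0.37 ± 0.152 to 1.01 ± 0.129 (SD, n = 3 each). Whether the TIMP1 probe and the Timp1 probe measure 1 transcript was not tested. Wnt2, Timp1 and TIMP1 passed with each of the 6 arrays left out (highest adjusted p 0.0309).

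A further 6 higher genes were named by size. Tnfrsf12a, the receptor of the cytokine TWEAK, went from 1.04, 1.03 and 1.34 to 1.77, 1.87 and 1.72, with no overlap (log2 change 0.65, SE 0.088, limma adjusted p 0.00647). Snai1, a transcriptional repressor of epithelial genes, had 0.083, -0.083 and 0.43 in controls and 0.80, 0.69 and 0.85 at 12 h (log2 change 0.63, SE 0.103, limma adjusted p 0.0145). The 3 treated arrays of Snai1 lay close together, above all controls. Hmga2, an architectural chromatin protein of embryonic and transformed cells, rose by 0.62 (adjusted p 0.047), and Neto2, a transmembrane subunit of glutamate receptor complexes, by 0.62 (adjusted p 0.0363, both limma). For Neto2, 12 h replicate 1 stood at 1.01 and the other 2 treated arrays at 0.088 and 0.093, just above the highest control at 0.049. Cobl, an actin nucleator, rose by 0.53 (limma adjusted p 0.048), and the small heat shock protein Cryab by 0.48 (limma adjusted p 0.0121). The groups of Cobl and Cryab overlapped, although each pair rose.

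Tnfrsf12a missed the threshold, of the 6 arrays left out in turn, only without 12 h replicate 2 (adjusted p 0.0612). Snai1, Neto2 and Cobl missed it without control replicate 1 (0.0509 to 0.113), and Snai1, Hmga2, Neto2, Cobl and Cryab without control replicate 2 (0.0801 to 0.175). Hmga2 missed it without control replicate 3 (0.0703). Snai1, Hmga2, Neto2, Cobl and Cryab missed it without 12 h replicate 1 (0.0586 to 0.198) or 12 h replicate 2 (up to 0.215), and all of these but Snai1 without 12 h replicate 3 (0.0567 to 0.151). With the arrays quantile-normalized Hmga2 had an adjusted p of 0.0559, and with each array centred on its median Cobl had 0.0524. With the 6 arrays of the comparison alone, Snai1 passed (adjusted p 0.039). Tnfrsf12a (0.0533), Cryab (0.0664), Hmga2 (0.0841), Cobl (0.0853) and Neto2 (0.0865) missed the threshold in that fit.

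**Figure D2:**
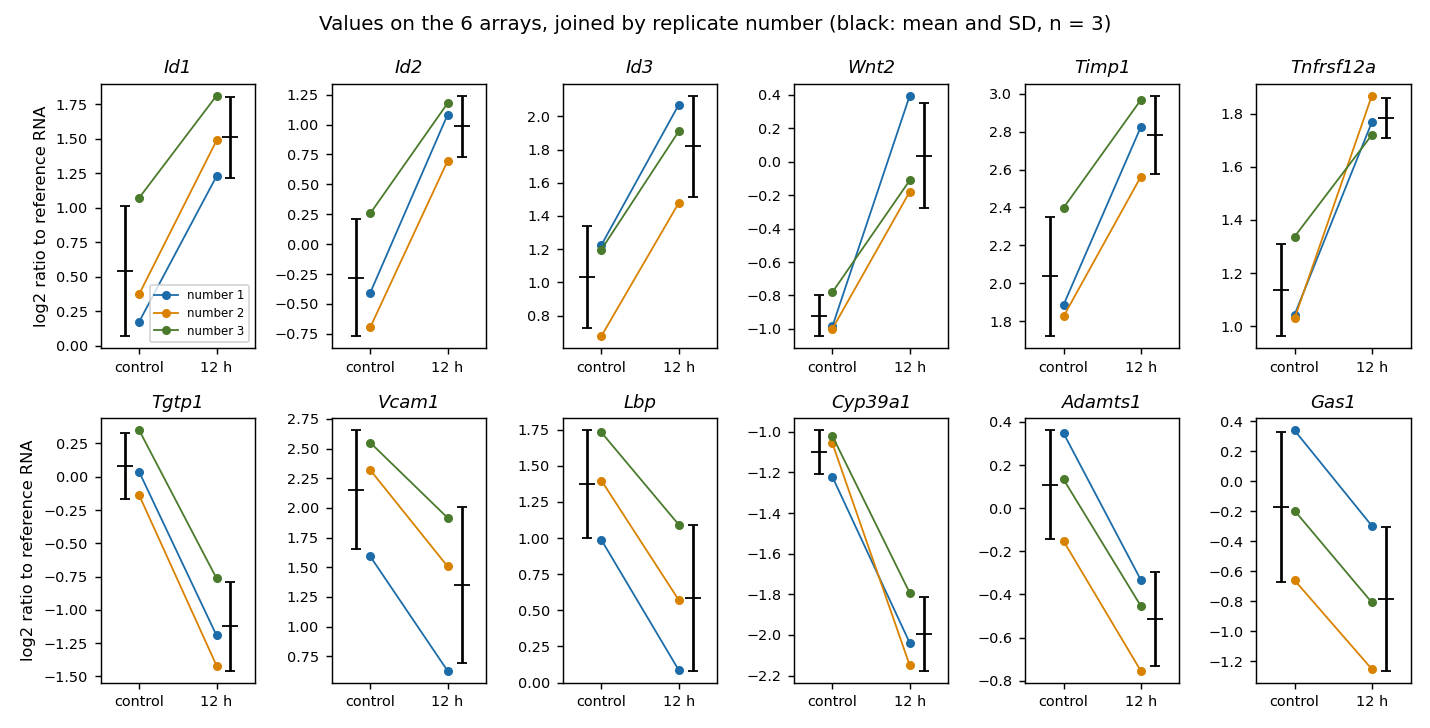
The log2 ratio to the reference RNA (vertical axis) is shown for 6 higher and 6 lower genes on the 3 control and 3 12 h arrays, with lines joining arrays of the same number and black bars for mean and SD (n = 3). Each line runs the same way within a panel, and for Vcam1, Lbp and Gas1 the groups overlap although every pair fell.

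Tgtp1, an interferon-inducible GTPase of T cells and macrophages that also responds in other cells, fell most. It stood at 0.035, -0.14 and 0.35 on the control arrays and at -1.19, -1.42 and -0.76 at 12 h. Every treated array was below every control, and the order of the replicate numbers was the same in both groups. Control cells had 2.31 times the value at 12 h (log2 change -1.21, SE 0.126, limma adjusted p 0.00211). The promoter window of Tgtp1 at chr11:48992247-48992496 (minus strand, GRCm38.p6, RefSeq) is shown because this gene had the largest fall. Capitals mark the letters GAAA, any 2 bases and GAAA again, the repeat of interferon response elements, searched on both strands.
Tgtp1: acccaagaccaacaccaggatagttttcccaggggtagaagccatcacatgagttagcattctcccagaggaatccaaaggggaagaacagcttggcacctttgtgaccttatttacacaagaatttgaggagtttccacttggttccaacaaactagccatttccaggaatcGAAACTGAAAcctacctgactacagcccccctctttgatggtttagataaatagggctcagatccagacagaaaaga
The motif began 77 bases before the start, and 2.98% of the 32851 windows hold it. Among 17 measured interferon response genes, Tgtp1 was the 1 called lower and 0 were called higher, where 1.42% of all genes were called lower. The list median was -0.07, with Ifitm3 at -0.32 (limma adjusted p 0.44), Gbp2 at -0.27 (limma adjusted p 0.096) and Isg15 at 0.01.

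Vcam1, the adhesion molecule through which activated endothelium holds leukocytes, had control values of 1.59, 2.32 and 2.55 and 12 h values of 0.63, 1.51 and 1.92. The groups overlapped, since 12 h replicate 3 was above control replicate 1, but within every number the treated array was lower. Vcam1 fell by 0.80 on the log2 scale (SE 0.075, limma adjusted p 0.00205), and its unpaired adjusted p was 1.0. Lbp, the lipopolysaccharide-binding protein of the acute phase, showed the same layout, with 0.99, 1.40 and 1.73 in controls and 0.087, 0.57 and 1.09 at 12 h. It fell by 0.79 on the log2 scale (SE 0.082, limma adjusted p 0.00211). Cyp39a1, an oxysterol hydroxylase of bile acid synthesis, fell from -1.22, -1.06 and -1.02 to -2.04, -2.15 and -1.79. Its groups did not overlap, and its change of -0.89 (SE 0.092, limma adjusted p 0.00211) carried the lowest unpaired adjusted p of all genes, 0.0689. Tgtp1, Vcam1, Lbp and Cyp39a1 passed with each of the 6 arrays left out (highest adjusted p 0.0209).

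A further 8 lower genes passed in every fit with 1 array left out (highest adjusted p 0.0393). Sema3c, a secreted guidance factor, fell by 0.64 on the log2 scale (SE 0.075, limma adjusted p 0.00283), from 0.82, 1.07 and 0.77 to 0.14, 0.22 and 0.36. Adamts1, a secreted metalloprotease that cleaves proteoglycans, fell by 0.62 (SE 0.06, limma adjusted p 0.00205), from 0.35, -0.15 and 0.13 to -0.33, -0.75 and -0.45. Neither gene had overlapping groups. Gas1, a membrane protein first found in growth-arrested cells, fell by 0.61 (SE 0.06, limma adjusted p 0.00205), and its control values of 0.34, -0.66 and -0.20 overlapped with the 12 h values of -0.30, -1.25 and -0.81. Within the numbers 1, 2 and 3, the treated array of Gas1 lay at -0.64, -0.59 and -0.61 from its control.

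Plcb1, a phospholipase C of G protein signalling, fell by 0.55 on the log2 scale (limma adjusted p 0.00283), from a control mean of 0.22 ± 0.105 to -0.34 ± 0.218. Rab32, a small GTPase of organelle trafficking, fell by 0.54 (limma adjusted p 0.00416), from 1.96 ± 0.233 to 1.42 ± 0.184. Pdp1, a phosphatase that activates pyruvate dehydrogenase, fell by 0.54 (limma adjusted p 0.00422), from 0.079 ± 0.212 to -0.46 ± 0.132. The groups of Plcb1, Rab32 and Pdp1 did not overlap. Tmem176b, a membrane protein of immune cells, fell by 0.51 (limma adjusted p 0.00283), from 0.65 ± 0.216 to 0.14 ± 0.26. Armcx2, a protein with armadillo repeats encoded on the X chromosome, fell by 0.50 (limma adjusted p 0.00283), from 1.66 ± 0.331 to 1.17 ± 0.37. The Armcx2 groups overlapped. Each error is an SD over n = 3. With the 6 arrays of the comparison alone, Sema3c and Rab32 missed the threshold (adjusted p 0.0514 and 0.0564).

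Few ligands, receptors or SMADs of the pathway passed. Against the shares over all genes of 0.472% called higher and 1.42% lower, among 16 measured BMP and TGF-beta ligands Tgfb2 was called lower and 0 were called higher (median 0.01), and Bmp6 itself stood at 0.01. Tgfb2, a ligand of the TGF-beta branch, fell by 0.44 on the log2 scale (SE 0.079, limma adjusted p 0.0245), from 0.76, 0.19 and 0.44 to 0.29, -0.33 and 0.14. Its groups overlapped and each pair fell. Of 10 measured receptors limma called 0 (2 lower at an unadjusted p under 0.05; median -0.03), with the type II receptor Bmpr2 at 0.01 and the coreceptor Tgfbr3 lowest at -0.28. Among 17 SMADs and regulators, Skil was called higher and 0 lower (median -0.02). Skil, a repressor of SMAD activity, rose by 0.33 (SE 0.048, limma adjusted p 0.00891), from -0.40, -0.36 and -0.12 to -0.067, 0.022 and 0.14, with no overlap. Smad1, a receptor SMAD of the BMP branch, lay at 0.10 and Smad3, of the TGF-beta branch, at -0.20. Tgfb2 missed the threshold without control replicate 1 (adjusted p 0.0642) or 12 h replicate 3 (0.0502). Tgfb2 and Skil both missed it without control replicate 2 (0.131 and 0.0606), 12 h replicate 1 (0.0586 to 0.121) or 12 h replicate 2 (0.0655 to 0.13).

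Prostanoid genes were not called at 12 h: of 14 measured members limma called 0 (2 higher and 1 lower at an unadjusted p under 0.05), with a list median of 0.05. Ptgs2, which encodes cyclooxygenase 2, had control values of 2.71, 2.74 and 3.52 and 12 h values of 3.67, 3.75 and 3.50. Pairs 1 and 2 were higher at 12 h and pair 3 was level, because control replicate 3 was close to the treated arrays. The Ptgs2 difference was 0.65 on the log2 scale (SE 0.164, limma adjusted p 0.0848), a size similar to that of Tnfrsf12a with a wider spread. With each array of the comparison left out the highest adjusted p of Ptgs2 was 0.308. The prostacyclin synthase Ptgis stood at 0.21 (limma adjusted p 0.112), the cochaperone and prostaglandin E synthase Ptges3 at 0.17 (limma adjusted p 0.403), and Ptges at 0.06 (limma adjusted p 0.699).

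In the Wnt pathway list, Wnt2 was called higher and Ccn4 lower among 22 measured members (median -0.02), where 0.472% of all genes were called higher and 1.42% lower. Ccn4, a matricellular protein first described as induced by Wnt1, fell by 0.33 on the log2 scale (SE 0.041, limma adjusted p 0.00422), from 1.76, 1.36 and 1.45 to 1.41, 1.04 and 1.14. Its groups overlapped because arrays numbered 1 were highest in both. Of 24 measured angiogenic factors and receptors, Vegfd and Met were called lower and 0 higher (median -0.03). Vegfd, a growth factor of lymphatic vessels, fell by 0.39 (SE 0.052, limma adjusted p 0.00647), from 1.67, 1.53 and 1.55 to 1.30, 1.04 and 1.25. Met, the receptor of hepatocyte growth factor, fell by 0.24 (limma adjusted p 0.0469). The 2 probes of Met, at -0.27 and -0.20, did not pass alone (limma adjusted p 0.182 and 0.154). Neither Vegfd nor Met had overlapping groups. Of 15 Notch pathway genes limma called 0 (1 at an unadjusted p under 0.05; median -0.01).

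Cytokine and adhesion genes split. Among 18 measured members, Tnfrsf12a and Il1rap were called higher and Vcam1 lower (median -0.00), where 0.472% of all genes were called higher and 1.42% lower. Il1rap, the accessory chain of the interleukin-1 receptor, rose by 0.47 (SE 0.084, limma adjusted p 0.0213), from -0.18, -0.17 and 0.18 to 0.35, 0.46 and 0.45. Of 19 immediate early genes limma called 0 (1 higher and 1 lower at an unadjusted p under 0.05; median -0.02), with Dusp4, a phosphatase of MAP kinases, highest at 0.30. Met and Il1rap missed the threshold without control replicate 1 (adjusted p 0.0601 to 0.091), control replicate 2 (0.122 to 0.19) or 12 h replicate 1 (0.118 to 0.193). Without 12 h replicate 2, Ccn4, Vegfd, Met and Il1rap all missed it (0.0511 to 0.162), and without 12 h replicate 3 Met did (0.153). After quantile normalization Met had an adjusted p of 0.0671.

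Of 32 matrix genes, Col4a2 was called higher and Col8a1 and Col6a1 lower (median -0.03), beside 0.472% higher and 1.42% lower over all genes. Col8a1, a short-chain collagen of vessel walls, fell by 0.50 on the log2 scale (SE 0.072, limma adjusted p 0.00857), with its 2 probes at -0.35 and -0.66. Col6a1, a microfibrillar collagen chain, fell by 0.40 (limma adjusted p 0.0245). Col4a2, a chain of basement membrane collagen, rose by 0.25 (limma adjusted p 0.0453), with its 2 probes at 0.15 and 0.35. Neither Col4a2 probe passed alone (limma adjusted p 0.4985 and 0.0764). Col4a1, the partner chain of Col4a2, stood at 0.41 (SE 0.099, limma adjusted p 0.0771). The groups of Col8a1, Col6a1 and Col4a2 overlapped.

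Of 24 matrix proteases and inhibitors, Timp1 was called higher and Adamts5 and Adamts1 lower (median -0.06), beside 0.472% higher and 1.42% lower over all genes. Adamts5, an aggrecan-cleaving protease, fell by 0.76 on the log2 scale (SE 0.106, limma adjusted p 0.00762), from 1.73, 1.19 and 1.58 to 1.04, 0.29 and 0.88. All its 12 h arrays were below all controls. The other inhibitors of the Timp family lay at -0.16 (Timp3), -0.10 (Timp2) and 0.01 (Timp4) and were not called. Among 11 regulators of mesenchymal transition, Snai1 and Hmga2 were called higher, and Tgfb2 and the homeobox factor Prrx1 lower (median 0.00). Prrx1, a marker of mesenchyme, fell by 0.50 (SE 0.083, limma adjusted p 0.0173), from 0.87, 0.65 and 0.36 to 0.18, 0.031 and 0.18. Zeb1, Zeb2, Snai2 and Twist1 were not called and lay between -0.11 and 0.03.

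Without control replicate 1, Col6a1, Col4a2 and Prrx1 missed the threshold (adjusted p 0.0601 to 0.11). Adamts5 joined them without control replicate 2 (0.0563 to 0.175). Without 12 h replicate 1 (0.0532 to 0.193) or 12 h replicate 2 (0.0635 to 0.198), Adamts5, Col8a1, Col6a1, Col4a2 and Prrx1 all missed it. Col6a1 and Col4a2 missed it without 12 h replicate 3 (0.0705 to 0.112). With each array centred on its median Col4a2 had an adjusted p of 0.052. Of 19 contractile genes of smooth muscle limma called 0 (2 at an unadjusted p under 0.05; median -0.01).

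Of 27 heat shock and oxidative stress genes, Cryab was called higher and Mgst1 and Ephx1 lower (median 0.01), where 0.472% of all genes were called higher and 1.42% lower. Mgst1, a membrane-bound glutathione transferase, fell by 0.78 on the log2 scale (SE 0.113, limma adjusted p 0.00897), from 0.82, 0.74 and 1.69 to -0.086, 0.15 and 0.87. Its groups overlapped because arrays numbered 3 were highest in both. Ephx1, the microsomal epoxide hydrolase, fell by 0.64 (SE 0.099, limma adjusted p 0.0116), from 1.95, 2.02 and 2.50 to 1.52, 1.43 and 1.60, with no overlap. Nqo1 and Txnrd1, reducing enzymes of the Nrf2 pathway, stood at 0.48 and 0.41 and were not called (limma adjusted p 0.0835 and 0.0795).

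Of 17 genes of the unfolded protein response, Dnajc3 was called higher and 0 lower, with a median of 0.10, where 0.472% of all genes were called higher. Dnajc3, which restrains the kinase Perk, rose by 0.41 (SE 0.085, limma adjusted p 0.0433), from 1.79, 1.71 and 1.65 to 2.06, 2.19 and 2.15, with no overlap. Creld2, Hspa5 and Hyou1 lay above control at 0.57, 0.46 and 0.27 without passing (limma adjusted p 0.0843, 0.0596 and 0.0516). After quantile normalization Hspa5 passed (adjusted p 0.0187), and of its 3 probes 1 passed alone (0.53 on the log2 scale, limma adjusted p 0.0394). The list median by pair was 0.11, 0.26 and 0.00 for numbers 1, 2 and 3.

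Of 17 genes of growth arrest and p53, Gas1 and Sesn1 were called lower and 0 higher (median -0.08), where 1.42% of all genes were called lower. Sesn1, a stress-induced inhibitor of mTORC1 signalling, fell by 0.35 on the log2 scale (limma adjusted p 0.0469). Of 46 genes of DNA replication and cell division, 38 lay above control and the median was 0.07, against -0.002 over all genes. The list median by pair was 0.206, 0.0768 and 0.0025 for numbers 1, 2 and 3, so the rise was uneven and pair 3 showed little of it. The SD over pairs, 0.103, was larger than the list median. Limma called 0 of the 46 (11 higher and 1 lower at an unadjusted p under 0.05). The ribonucleotide reductase subunit Rrm2 was highest at 0.32 (limma adjusted p 0.052), with the replication licensing factor Cdc6 at 0.31 and the proliferation marker Mki67 at 0.02. Of 20 cholesterol genes, 2 were called lower and 0 higher (median -0.09), and 16 lay at or below control. They were Abca1, the cholesterol efflux pump, at -0.44 (SE 0.069, limma adjusted p 0.0121) and Fdft1, squalene synthase, at -0.30 (SE 0.047, limma adjusted p 0.0121). Among 19 glycolysis and hypoxia genes, Pdk1, a kinase that shuts off pyruvate dehydrogenase, was called lower at -0.27 (limma adjusted p 0.0487), and 0 were called higher (median -0.06).

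Limma called 0 of 37 oxidative phosphorylation genes (median -0.05), 0 of 45 ribosomal protein genes (median 0.02) and 0 of 7 amino acid carriers (median -0.06). At an unadjusted p under 0.05 it had 1 oxidative phosphorylation gene higher, 1 lower, and 0 genes of the ribosomal or amino acid lists. Without control replicate 1, Pdk1 and Dnajc3 missed the threshold (adjusted p 0.0587 to 0.111). Without control replicate 2, Abca1, Fdft1, Pdk1, Dnajc3 and Sesn1 missed it (0.0672 to 0.192), and without control replicate 3 Dnajc3 and Sesn1 did (0.056 to 0.0785). Without 12 h replicate 1, Mgst1, Fdft1, Pdk1, Dnajc3 and Sesn1 missed it (0.0586 to 0.209), and without 12 h replicate 2 Ephx1 and Abca1 as well (0.0594 to 0.198). Without 12 h replicate 3, Ephx1, Abca1, Pdk1, Dnajc3 and Sesn1 missed it (0.0502 to 0.158). Sesn1 had an adjusted p of 0.0562 after quantile normalization, and Pdk1 had 0.052 on centred arrays.

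**Figure D3:**
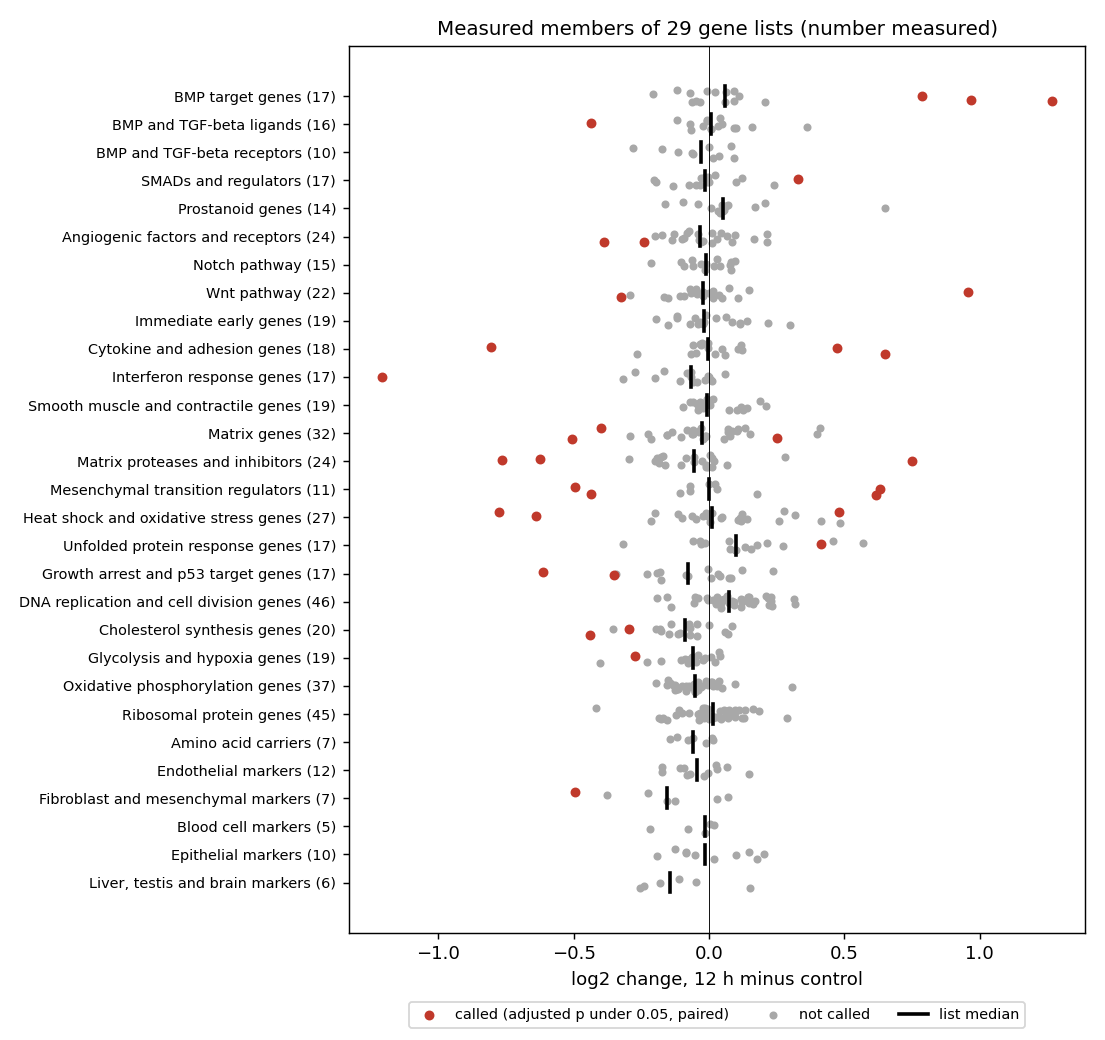
Each point is a measured gene of 1 of 29 lists, placed by its log2 change from control to 12 h; red points passed the paired fit and black bars are list medians. The 3 Id genes stand apart from the other BMP targets, and the medians of the lists lie between -0.15 and 0.10.

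Some further genes were chosen after their values were seen. Ccn3, a matricellular protein of endothelial cells, fell by 0.96 on the log2 scale with a wide spread (SE 0.206, limma adjusted p 0.0485). Its control replicate 1 stood at 1.24 and the other 2 controls at -0.008 and 0.19, against -0.53, -0.80 and -0.12 at 12 h. Mbl2, a lectin of the complement system, fell by 0.72 (limma adjusted p 0.0278), and C1s1, a protease of the same system, by 0.47 (limma adjusted p 0.0145). Cebpd, a transcription factor of the acute phase, fell by 0.44 (limma adjusted p 0.0433). Aldh1a1, a retinaldehyde dehydrogenase, fell by 0.61 (limma adjusted p 0.00577), Maoa, a monoamine oxidase, by 0.55 (limma adjusted p 0.0297) and Gstm4, a glutathione transferase, by 0.47 (limma adjusted p 0.00857). Gcnt1, a glycosyltransferase that branches O-glycans, fell by 0.74 (limma adjusted p 0.0107) although its arrays spread widely, with an SD of 0.919 in controls. Hbegf, a ligand of the EGF receptor, rose by 0.47 (limma adjusted p 0.0315), and Itga6, a laminin receptor subunit, by 0.38 (limma adjusted p 0.00758).

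Without control replicate 1, Ccn3, Mbl2, Maoa, Cebpd and Hbegf missed the threshold (adjusted p 0.0718 to 0.113). Without control replicate 2, Ccn3, Mbl2, Gcnt1, Maoa, C1s1, Cebpd and Hbegf missed it (0.0606 to 0.141), and without control replicate 3 Cebpd did (0.0661). Without 12 h replicate 1 (0.0531 to 0.181), all of Ccn3, Mbl2, Gcnt1, Maoa, Gstm4, C1s1, Cebpd, Hbegf and Itga6 missed it. Aldh1a1 joined them without 12 h replicate 2 (0.0564 to 0.157). Mbl2, Maoa and Cebpd missed it without 12 h replicate 3 (0.0501 to 0.0925).

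Between 4 h and 12 h, Ccn2 had the largest fall and Cavin2 the largest rise among the genes called. Of 8267 genes, 107 (1.29%) differed between these times in the paired limma fit, 22 higher at 12 h (0.266%) and 85 lower (1.03%), and 20 probes did (0.0986%), Cavin2 higher (0.00493%) and 19 lower (0.0937%). Without the block limma called 0 of either (368 genes and 614 probes at an unadjusted p under 0.05), and in the fit without 4 h replicate 1 the 264 genes called were 133 higher and 131 lower. The connective tissue growth factor Ccn2 fell from 1.58, 1.98 and 1.22 at 4 h to -0.20, 0.71 and 0.12 at 12 h (log2 change -1.38, SE 0.197, limma adjusted p 0.0198), and its mean change from control at 12 h was -0.007, with pairs 1, 2 and 3 at -0.50, 0.66 and -0.18. Vcl, vinculin of focal adhesions, fell from 1.65, 1.74 and 1.71 to 1.19, 0.89 and 0.73 (log2 change -0.77, SE 0.083, limma adjusted p 0.00442). No 12 h array of Ccn2 or Vcl reached the lowest 4 h array.

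Fam110c, a microtubule-associated protein, was lower at 12 h than at 4 h by -0.75 (limma adjusted p 0.0181), the EGF receptor inhibitor Errfi1 by -0.72 (limma adjusted p 0.0442) and the heme oxygenase Hmox1 by -0.64 (limma adjusted p 0.0145). Vcam1 was near control at 4 h, with a mean of 2.05 ± 0.506 (SD, n = 3) against 2.15 ± 0.501, and fell by 0.70 on the log2 scale from 4 h to 12 h (limma adjusted p 0.00442). The caveolar coat protein Cavin2 was higher at 12 h than at 4 h by 0.69 (limma adjusted p 0.0212), and Adamts5 by 0.59 (limma adjusted p 0.04). Both were still below control at 12 h, Cavin2 at -0.59 (limma adjusted p 0.0182). Thymidine kinase Tk1, the recombination protein Rad54b and Shcbp1, a protein of dividing cells, were higher at 12 h by 0.52, 0.48 and 0.41 (limma adjusted p 0.0491, 0.0411 and 0.029). Armcx6, an armadillo-repeat protein, was higher by 0.36 (limma adjusted p 0.0458).

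These differences from 4 h rest on few arrays. Without 4 h replicate 2 all 12 of these genes missed the threshold (adjusted p 0.0575 to 0.235), and without 4 h replicate 1 Armcx6 did (0.0789). Adamts5, Cavin2, Tk1, Rad54b, Shcbp1, Armcx6, Fam110c and Errfi1 missed it without 4 h replicate 3 (0.0888 to 0.201) or without 12 h replicate 1, 2 or 3 (0.0771 to 0.182, 0.0992 to 0.184 and 0.103 to 0.238). Hmox1 missed it without 4 h replicate 3 (0.0569), 12 h replicate 2 (0.0992) or 12 h replicate 3 (0.102), and Ccn2 without 12 h replicate 1 (0.0655) or 3 (0.103). With each array centred on its median Tk1 had an adjusted p of 0.0563.

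Between 12 h and 24 h, 9 genes (0.109%) differed in the paired limma fit, 7 higher at 24 h (0.0847%) and 2 lower (0.0242%), and without the block limma called 0 (152 at an unadjusted p under 0.05). Among probes, 4 passed (0.0197%), 3 higher at 24 h (0.0148%), namely Cyp39a1, Vcam1 and an unnamed probe, and 1 of Hspa5 lower (0.00493%). Vcam1 returned from 0.63, 1.51 and 1.92 at 12 h to 1.44, 2.18 and 2.44 at 24 h (log2 change 0.67, SE 0.075, limma adjusted p 0.0263). Cyp39a1 rose from -2.04, -2.15 and -1.79 to -1.15, -1.43 and -1.07 (log2 change 0.78, SE 0.092, limma adjusted p 0.0263). Both were again close to control at 24 h, at -0.14 and -0.12 on the log2 scale. Tgfb2, Plcb1, Armcx2, Neat1 and Vegfd, all called lower at 12 h, were higher at 24 h than at 12 h by 0.55, 0.47, 0.42, 0.40 and 0.35 (limma adjusted p 0.0387 to 0.0448). Neat1, a long noncoding RNA of paraspeckles, had fallen by 0.40 on the log2 scale at 12 h (SE 0.055, limma adjusted p 0.00762). Of its 2 probes, that at -0.51 passed alone at 12 h against control (limma adjusted p 0.0101). The other, at -0.28, did not (limma adjusted p 0.0902). Timp1 fell by 0.58 from 12 h to 24 h (limma adjusted p 0.0448).

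Hspa5, the main chaperone of the endoplasmic reticulum, fell from 3.57, 3.78 and 3.98 at 12 h to 2.96, 2.98 and 3.15 at 24 h (log2 change -0.75, SE 0.105, limma adjusted p 0.0387). Every 24 h array was below every 12 h array. Its promoter window at chr2:34771840-34772089 (plus strand, GRCm38.p6, RefSeq) is shown because the gene is the chaperone of this list that changed between these times. Capitals mark the endoplasmic reticulum stress element, CCAAT and CCACG with any 9 bases between them, searched on both strands.
Hspa5: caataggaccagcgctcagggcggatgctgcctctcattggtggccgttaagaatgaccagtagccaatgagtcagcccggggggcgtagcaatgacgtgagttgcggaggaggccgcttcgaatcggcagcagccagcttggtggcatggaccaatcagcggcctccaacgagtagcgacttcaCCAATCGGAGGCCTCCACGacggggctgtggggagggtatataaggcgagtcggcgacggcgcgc
The element began 65 bases before the start and is present in 0.113% of the 32851 windows.

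Each of the 9 calls between 12 h and 24 h was lost without 12 h replicate 1 (adjusted p 0.111 to 0.288), 12 h replicate 2 (0.252 to 0.319), 24 h replicate 1 (0.21 to 0.262) or 24 h replicate 3 (0.134 to 0.263). All of them but Vcam1 were lost without 12 h replicate 3 (0.0683 to 0.0999), and all but Cyp39a1 without 24 h replicate 2 (0.0586 to 0.176). Tgfb2, Timp1 and Vegfd were also lost after quantile normalization (0.0564) and on centred arrays (0.0508 to 0.0568). Cavin2 and Neat1, called lower at 12 h against control, missed that threshold without control replicate 2 (0.0851 and 0.0557) or 12 h replicate 2 (0.0669 and 0.0635). Cavin2 also missed it without 12 h replicate 1 (0.0952) or 12 h replicate 3 (0.085).

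**Figure D4:**
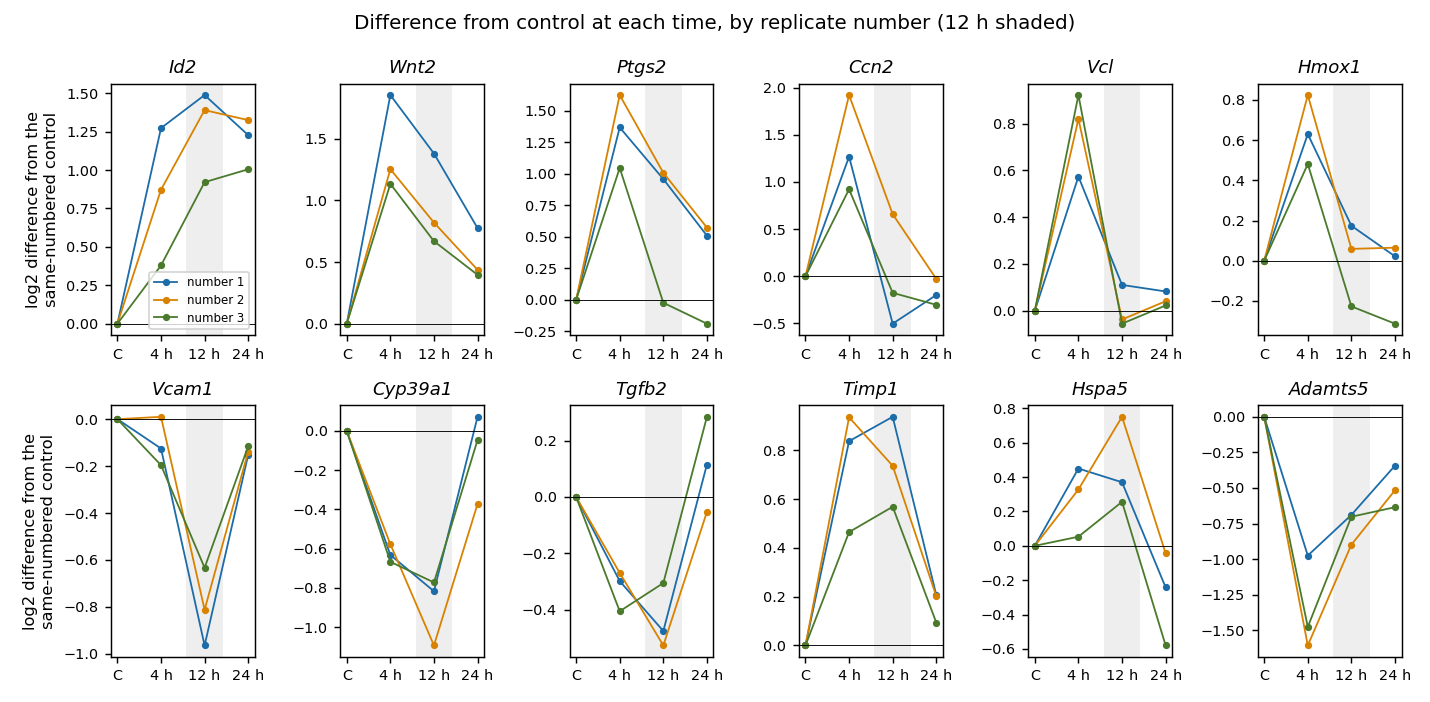
For 12 genes, the log2 difference from the same-numbered control array (vertical axis) is drawn at 4, 12 and 24 h of BMP6, with 1 line per replicate number and 12 h shaded. Ccn2, Vcl and Hmox1 peak at 4 h in every number and are lower at 12 h, Vcam1 is lowest at 12 h, and Ptgs2 of number 3 lies at control by 12 h.

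Among the markers of endothelial and other cells, Prrx1 was the only gene called. Of the mesenchymal marker Col3a1, 1 probe passed alone (-0.53 on the log2 scale, limma adjusted p 0.0413). Of 12 measured endothelial markers limma called 0 (1 at an unadjusted p under 0.05; median change -0.04). Pecam1 had a mean of -1.42 ± 0.241 in controls and -1.44 ± 0.393 at 12 h, and Cdh5 of -1.62 ± 0.084 and -1.73 ± 0.109 (SD, n = 3), both below the level of the mixed reference RNA. Among 7 fibroblast and mesenchymal markers, Prrx1 was called lower and 0 higher (median -0.15, 5 of 7 below control), where 1.42% of all genes were called lower. The part of such cells in the other changes was not tested. Limma called 0 of 5 blood cell markers (median -0.02), 0 of 10 epithelial markers (median -0.02) and 0 of 6 markers of liver, testis and brain (median -0.14). At an unadjusted p under 0.05 the counts were 0 for blood, 1 higher and 1 lower for epithelium, and 2 lower for liver, testis and brain. The median control levels were -0.84 for the endothelial list, -0.07 for the fibroblast list, -0.63 for blood, -0.84 for epithelium and -1.63 for liver, testis and brain, all as log2 ratios to the reference.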

How the data were processed

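RNA of MEC cells and a reference RNA were hybridised to 12 two-colour Agilent arrays. The deposited values were taken as log2 ratios. Per the labels, the authors scanned the arrays with GenePix software and normalized the values by a modified local quantiles method before deposit. Probe names came from the platform annotation through the position order given with the comparison: 10576 probes had 1 symbol and were averaged per gene, and 507 with several symbols were not named. Promoter sequences are RefSeq's (GRCm38.p6).

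One fit per probe or gene over all 12 arrays with limma (version 3.58.1; R version 4.3.3; lmFit, then eBayes; two-sided tests) held the group and the replicate number as an additive block, with Benjamini-Hochberg adjustment over 20280 probes or 8267 genes and a threshold of 0.05. Errors of changes are standard errors of this fit. The fit was run on simulated data that held replicate-number effects taken from these arrays. Because those effects were built in, that run cannot show whether arrays of the same number are pairs. The comparison was set up as paired by the number in the title. Deviations from group means correlated at 0.443 to 0.651 within the 3 same-numbered pairs of control and 12 h, and at -0.546 to 0.069 between 6 differently numbered ones. The deviations of the 3 arrays of a group cancel, so the second range follows in part from the first. This pairing rests on numbers in titles; the labels do not say what arrays of 1 number have in common.

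The members, lists and tests were chosen with earlier results of these data known. Genes were named by this rule: up to 12 in each direction of largest change among genes that moved 1 way in 3 pairs and passed with each of 6 arrays left out, filled up to 12 by size; the Id genes and Ptgs2; up to 4 called members per list; and up to 6 per direction between times. Alternatives were the fit without the block, 6 arrays only, quantile normalization, median centring, robust eBayes, the median of a gene's probes, the methods' t-test and leaving out arrays.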

Additional observations from a re-analysis of the deposited data

Results flagged for a closer look

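The results here stand out because the value at 12 h differed from that at 4 h or at 24 h by a limma test of that difference itself (adjusted p under 0.05 in the paired fit). The groups hold 3 arrays each, so no array was tested for lying far from its group. Only the 65 genes named by rule were screened for this list. Over all genes, 85 were called lower and 22 higher at 12 h than at 4 h, so most are not listed. The named genes lower at 12 h than at 4 h were Ccn2 (-1.38 on the log2 scale), Vcl (-0.77), Fam110c (-0.75), Errfi1 (-0.72), Vcam1 (-0.70), Hmox1 (-0.64), Hbegf (-0.51), Tnfrsf12a (-0.49), Ccn4 (-0.44), Il1rap (-0.41), Lbp (-0.40), C1s1 (-0.40), Abca1 (-0.34), Neat1 (-0.27) and Skil (-0.24). Tnfrsf12a, Hbegf, Il1rap and Skil were called higher than control at 12 h even so. The named genes higher at 12 h than at 4 h were Cavin2 (0.69), Adamts5 (0.59), Tk1 (0.52), Rad54b (0.48), Shcbp1 (0.41), Armcx6 (0.36) and Armcx2 (0.34).

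From 12 h to 24 h, Cyp39a1 (0.78), Vcam1 (0.67), Tgfb2 (0.55), Plcb1 (0.47), Armcx2 (0.42), Neat1 (0.40) and Vegfd (0.35) were higher at 24 h, and Hspa5 (-0.75) and Timp1 (-0.58) lower. Vcam1 and Neat1 differed on both sides of 12 h, lower there than at 4 h and at 24 h. Armcx2 differed on both sides too, with 12 h between the other times.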

How the results depend on the processing

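Without the replicate block, 0 genes and 0 probes passed in each comparison of 12 h with control, 4 h or 24 h. The methods' t-test at 12 h against control gave 297 genes and 556 probes unadjusted, and 1 gene (Ung, 0.15) and 0 probes after Benjamini-Hochberg adjustment. With the 6 arrays of a comparison alone, 26 genes and 1 probe passed against control, 0 genes and 0 probes against 4 h, and 6 genes and 0 probes against 24 h. Leaving out 1 array or 1 replicate number at a time, the counts ran from 3 to 288 genes and 0 to 162 probes against control, 0 to 264 genes and 0 to 123 probes against 4 h, and 0 to 1 genes and 0 to 1 probes against 24 h. Quantile normalization gave 163 genes and 9 probes against 4 h and 8 probes against 24 h. Against 4 h, median centring gave 9 probes and robust eBayes 15. With quantile normalization, median centring or robust eBayes, 0 probes were higher at 12 h than at 4 h, so the Cavin2 probe was lost in each. The cause of these shifts was not tested. Robust eBayes and the median of a gene's probes each called 156 genes against control. The fits without the block, with 6 arrays alone and with robust eBayes give the log2 changes of the main fit. No sign could change there. Genes called had also moved 1 way in 3 of 3 pairs, so a kept sign was likely from the start. In the remaining settings, also with each single array left out, the 54 named genes called at 12 h against control kept their sign. Of the 11 not called, 6 with values near 0 changed sign: Ccn2 (0.0241) and Errfi1 (0.0062) after quantile normalization, Vcl (-0.0002) and Hmox1 (-0.0027) on centred arrays, and with an array left out Rad54b (-0.0062), Errfi1 (0.0282) and Fam110c. Of the 65 named genes, 62 kept their side of the threshold on centred arrays, 61 after quantile normalization and 36 with 6 arrays alone. The 29 that missed it with 6 arrays alone were all called in the main fit. With each array left out 29 kept their side, namely 18 genes chosen for passing those fits and the 11 not called. The 11 were scored at their highest adjusted p, so this count was largely fixed in advance. The other 36 called genes missed the threshold in at least 1 of those fits. Of the 29 list medians, 2 to 4 moved by more than their spread over pairs when an array was left out. The median of the BMP target list was among them in each of these fits.

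The values carry no spot intensities here, so signal over background was not examined. Log base, sign and the order behind the gene names are stated assumptions, and each group holds 3 arrays.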
